A study of Drosophila melanogaster with 6 samples.

Results

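The genes described here are 6 factors of larval temporal identity, *chinmo*, *br*, *Eip93F*, *Imp*, *Syp* and *lin-28*, chosen by name. They are 6 of 17559 genes in the table of counts. Of these, 5 passed the filter on low counts and were tested among 7942 genes, and *lin-28* lay under it. RNA was measured by sequencing of poly(A)-selected libraries from wing imaginal discs of wandering *Drosophila melanogaster* larvae, the epithelial sacs that form the adult wing and notum. The design asks which transcripts differ when *Nup98-96*, a gene for 2 nuclear pore proteins, is targeted by RNAi while apoptosis is blocked.

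The 3 knockdown libraries, so named from their labels, came from larvae carrying UAS-*Nup98* RNAi HM05048, and the 3 control libraries from larvae carrying UAS-*white* RNAi JF01540, against an eye pigment gene. Both groups also carried UAS-P35, a baculoviral caspase inhibitor, together with *ap*-Gal4, UAS-GFP and *tub*-Gal80TS, a temperature-sensitive repressor of Gal4. Gal4 was held off for 4 days and was then active for 72 h before dissection. The *ap*-Gal4 driver acts in the dorsal compartment of the disc, whereas whole discs were sequenced, so that cells without RNAi are part of every library. Each library is a pool of discs, so that a p-value here reflects how far pools of discs of the same genotype differ.

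During larval growth, cells change competence through a sequence of transcription factors. Chinmo, a BTB zinc finger protein, marks early larval cells. Broad, the product of *br* and itself a BTB zinc finger protein, marks late larval cells once the steroid hormone ecdysone has risen, and E93, the pipsqueak-domain product of *Eip93F*, marks the pupal stage. In neural stem cells the RNA-binding proteins Imp and Syncrip (Syp) form opposing gradients in time, Imp early and Syp late, and set the level of Chinmo protein. Lin-28 is an RNA-binding protein known for blocking maturation of the microRNA let-7, which itself targets *chinmo*.

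Libraries held 70342787 to 110330112 counts in genes, and 1 count corresponded to 0.00943 to 0.0141 CPM (reads of a gene relative to the library total), here always scaled by TMM, a normalisation that sets the bulk of genes level between libraries. *Nup98-96* was at 331, 335 and 316 CPM in control replicates 1 to 3 and at 317, 302 and 314 CPM in knockdown replicates 1 to 3. The groups overlapped and the difference was not called (log2 fold change -0.07, adjusted p = 0.118), so that the targeted transcript does not check the labels in whole discs. *w*, the gene targeted in the controls, was at 544 ± 50.9 CPM there and at 998 ± 119 CPM in the knockdown (SD, n = 3 each, adjusted p = 0.000326), and reads of a hairpin and of its target gene cannot be told apart in counts per gene. All 6 markers of the wing disc were present in every library, with a summed level of 1940 to 2080 CPM in control and 1560 to 1580 CPM in knockdown libraries. Among them *vg* (log2 fold change -0.70), *nub* (-0.87) and *Dll* (-1.67) were called lower, and *ap*, *sd* and *rn* were not called. The summed level of 6 fat body genes was 3480 CPM in control replicate 1, far above the 21.0 to 85.6 CPM of the other 5 libraries, and the differences of the 6 factors and their ratios are therefore also given without that library.

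Of the 5 tested factors 4 were called, beside 26.6% of all tested genes. A call required an adjusted p below 0.05 together with a log2 fold change of 0.5 or more in either direction. *chinmo* and *Imp* were higher in the knockdown, as 15.3% of tested genes were, and *br* and *Syp* were lower, as 11.2% were. *Eip93F* was not called. Among these 4, the factors known from early cells were the higher pair and those known from late cells the lower pair. *lin-28*, under the filter, is not among these 4 and was lower in the knockdown (given below). Groups did not overlap for these 4 genes, as for 72.8% of tested genes, with the knockdown above every control for 2 (36.6% of tested genes) and below for 2 (36.2%). In pooled tissue, fewer cells of a type and less RNA per cell cannot be told apart.

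**Figure D1:**
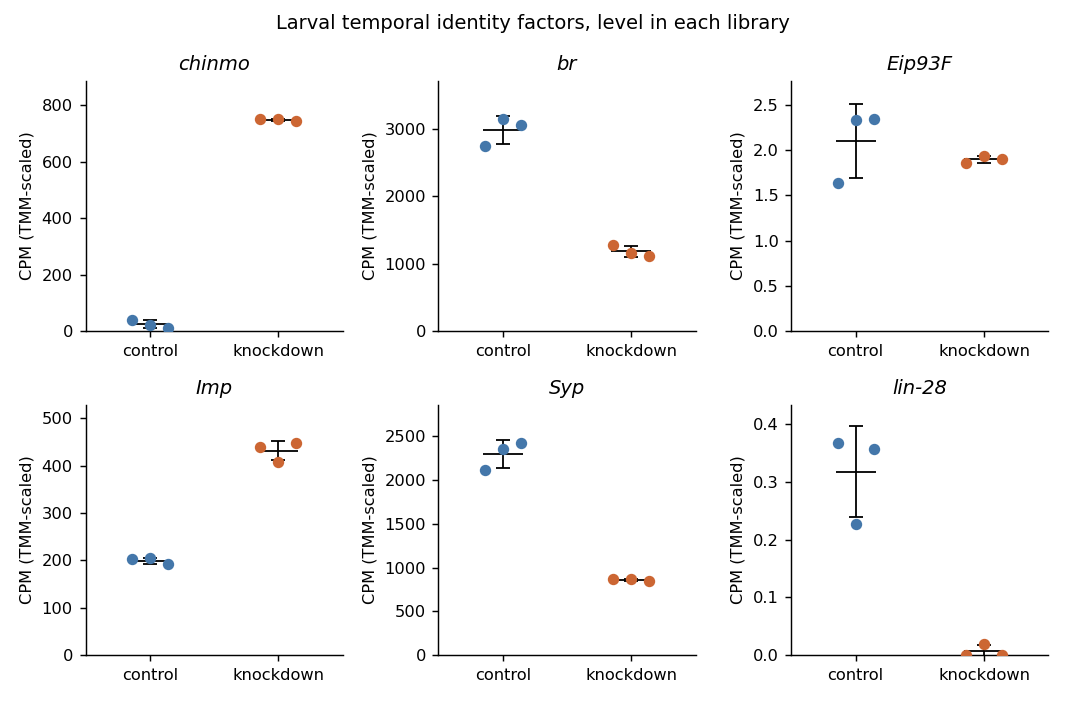
Level of each temporal factor in CPM (TMM-scaled, linear axis from 0) in 3 control and 3 knockdown libraries. Points are libraries, from replicate 1 on the left to replicate 3 on the right, and bars are the mean and SD. *chinmo* and *Imp* lie higher in every knockdown library, *br*, *Syp* and *lin-28* lie lower, and the groups of *Eip93F* overlap.

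*chinmo* (FBgn0086758, BDGP6 chromosome 2L, 1651258 to 1704682, plus strand) encodes the early larval factor and overlaps no other annotated gene. It was at 39.6, 23.5 and 10.6 CPM in control replicates 1 to 3 and at 750.1, 749.4 and 744.2 CPM in knockdown replicates 1 to 3. The groups were far apart, the lowest knockdown library being 18.8 times the highest control. The knockdown mean of 747.9 ± 3.18 CPM was 30.4 times the control mean of 24.6 ± 14.6 CPM (SD, n = 3 each). On the log2 scale the difference was 4.93, with a standard error of 0.47 and a 95% interval from 3.80 to 6.06 (adjusted p = 0.000130 by the quasi-likelihood test of edgeR, as for all genes tested). This log2 fold change ranked 42 from the top among 7942 tested genes.

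The spread of *chinmo* differed between the groups. Its coefficient of variation was 59.3% among the controls and 0.425% among the knockdown libraries. The highest control was 3.75 times the lowest, a ratio reached or exceeded by 146 tested genes (1.84%), against a median ratio of 1.1 over all tested genes. In the knockdown the highest library was 1.01 times the lowest. The log2 fold change therefore moved most with the choice of controls, to 5.46 without control replicate 1, the library with fat body RNA, and to 4.57 without control replicate 3. The call held in both cases.

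*br* (FBgn0000210, chromosome X, 1575132 to 1664869, plus strand) encodes the late larval factor and was among the most abundant transcripts of the control discs, at rank 16 of the tested genes by CPM. Its level was 2753, 3144 and 3054 CPM in control replicates 1 to 3 and 1278, 1157 and 1112 CPM in knockdown replicates 1 to 3. Every knockdown library was below every control, and the lowest control was 2.15 times the highest knockdown. The mean fell from 2984 ± 205 to 1182 ± 85.7 CPM (SD, n = 3 each), 2.52-fold lower. The log2 fold change was -1.34 with a standard error of 0.07 (95% interval -1.50 to -1.17, adjusted p = 8.18e-06). Transcripts of *br* were reduced rather than lost, and *br* was still above *chinmo* in CPM in all 3 knockdown libraries.

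*Mur2B* lies across *br* on the other strand and shares 189 bp, 0.936% of the exon length of *br*. Reads were counted without strand, so that those in the shared bases cannot be assigned to 1 of these genes. *Mur2B* had a mean of 1.57 CPM in the controls against 5.88 CPM in the knockdown, and was called higher (log2 fold change 1.91). Its level was thus small beside that of *br* and moved the other way.

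*Eip93F* (FBgn0264490, chromosome 3R, 21949114 to 22014539, plus strand), the pupal factor that directs adult differentiation, was at 1.63, 2.33 and 2.34 CPM in control replicates 1 to 3 and at 1.85, 1.93 and 1.90 CPM in knockdown replicates 1 to 3. All 3 knockdown libraries lay between the lowest and the highest control. The log2 fold change was -0.15 (standard error 0.21, 95% interval -0.66 to 0.36, adjusted p = 0.562), an interval that still holds changes past the threshold of 0.5 downward. *Eip93F* passed the filter narrowly, with a highest normalised count of 217.4 against the threshold of 200. Without control replicate 1 the log2 fold change was -0.30 and was not called (adjusted p = 0.161).

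*Imp* (FBgn0262735, chromosome X, 10787869 to 10824277, minus strand), the IGF-II mRNA-binding protein of early neural stem cells, was at 201.9, 204.3 and 192.2 CPM in control replicates 1 to 3. The knockdown libraries held 439.1, 408.5 and 448.1 CPM in replicates 1 to 3. All knockdown libraries were above all controls, by at least 2.0 times. Its mean was 199 ± 6.40 CPM in control and rose 2.17-fold to 432 ± 20.8 CPM (SD, n = 3 each). The log2 fold change was 1.11 with a standard error of 0.05 (95% interval 1.00 to 1.23, adjusted p = 3.13e-06). An annotated noncoding gene on the same strand, lncRNA:CR45204, shares 14.3% of the exon length of *Imp*. Its whole span of 1955 bp lies in exons of *Imp*, so that its lack of counts in every library does not show it to be silent. Whether reads in these bases were left out of the counts of *Imp* was not tested. If they were, the level of *Imp* per kilobase is understated.

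*Syp* (FBgn0038826, chromosome 3R, 20756729 to 20810726, plus strand), the RNA-binding protein of late neural stem cells, ranked 29 among tested genes by CPM in the controls. It was at 2118, 2354 and 2426 CPM in control replicates 1 to 3 and at 872.3, 865.1 and 850.5 CPM in knockdown replicates 1 to 3. The groups did not overlap, and the lowest control was 2.43 times the highest knockdown. The mean fell from 2300 ± 161 to 862.6 ± 11.1 CPM (SD, n = 3 each), 2.67-fold lower. The log2 fold change was -1.41 with a standard error of 0.05 (95% interval -1.54 to -1.29, adjusted p = 1.84e-06). *CG31195* and *Takl1*, within the span of *Syp* on the other strand, share no exon bases with it.

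Without control replicate 1 the log2 fold changes were -1.39 for *br*, 1.12 for *Imp* and -1.47 for *Syp*, each still called. *chinmo*, *br*, *Imp* and *Syp* were called in the same direction under all 16 alternatives of scaling, filter, test and left-out library. *Eip93F* was called under none of them.

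**Figure D2:**
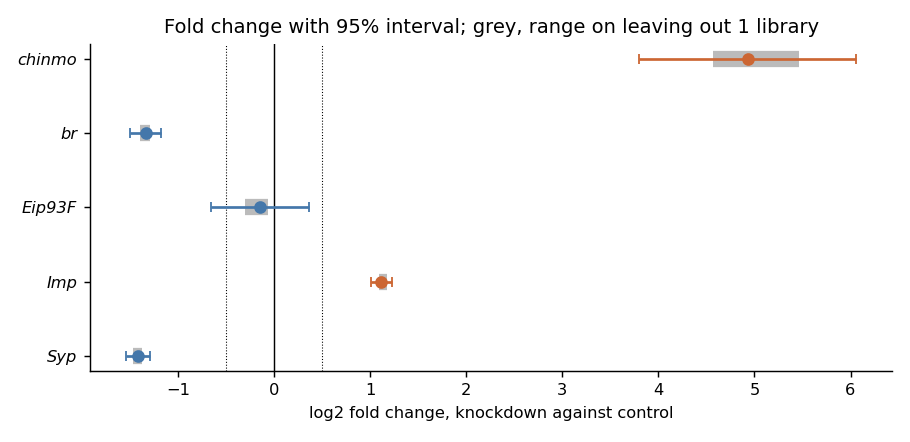
Log2 fold change (knockdown against control) of the 5 tested factors, with the 95% interval from edgeR as bars and the range on leaving out each library in turn as grey boxes. Dotted lines mark the threshold of 0.5 in either direction. *chinmo* has the widest interval, from 3.80 to 6.06, and *Eip93F* spans 0.

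*lin-28* (FBgn0035626, chromosome 3L, 5654681 to 5657384, plus strand) had the lowest CPM of the 6 factors, without regard to gene length. It had 35, 22 and 38 counts in control replicates 1 to 3 and 0, 2 and 0 counts in knockdown replicates 1 to 3. With a highest normalised count of 34.65 it was removed by the filter, which required 200, and it has no test in the main comparison. Each control library was above each knockdown library, with 95 counts over the controls and 2 over the knockdown. The ratio of control to knockdown, relative to library size, was 41.3 (95% interval 11.1 to 346, counting error only), and 38.3 (10.1 to 323) without control replicate 1. Without the filter *lin-28* was called lower at a log2 fold change of -5.18 ± 0.83 (± is the standard error, with adjusted p = 0.000844 over 15021 genes by edgeR), where 8.12% of genes were called lower and 21.1% in either direction. All factors except *Eip93F*, 5 of 6, were then called. With edgeR's filterByExpr the log2 fold change was -5.16 (adjusted p = 0.000976), with 10.6% of genes called lower. At these counts the level in the knockdown discs cannot be separated from 0.

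Levels were compared between the genes per kilobase of exon, as CPM per kb. In the controls *Syp* was highest at 204.9 ± 14.4 CPM per kb and *br* next at 147.7 ± 10.1 CPM per kb. *Imp* followed at 14.6 ± 0.469, *chinmo* at 1.95 ± 1.16, *lin-28* at 0.276 ± 0.0684 and *Eip93F* at 0.166 ± 0.0321 CPM per kb (SD, n = 3 each). In this order no neighbours overlapped in their libraries, from 188.7 to 216.2 CPM per kb for *Syp* against 136.3 to 155.7 for *br*, down to 0.197 to 0.320 for *lin-28* against 0.129 to 0.184 for *Eip93F*.

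In the knockdown *Syp* was at 76.9 ± 0.990 CPM per kb, and *chinmo*, at 59.3 ± 0.252, stood beside *br*, at 58.5 ± 4.24. These neighbours overlapped, with *chinmo* at 58.98 to 59.44 CPM per kb and *br* at 55.07 to 63.26. *Imp* was at 31.6 ± 1.52, *Eip93F* at 0.149 ± 0.00312 and *lin-28* at 0.00572 ± 0.00991 CPM per kb (SD, n = 3 each). The exon length joins all transcripts of a gene, 16 for *br* and 20 for *Syp*. With the mean transcript length instead, *br* was above *Syp* in both groups (593.8 against 580.4 CPM per kb in control, 235 against 218 in knockdown), and *chinmo* in the knockdown was at 112 CPM per kb, below *br*. The order of *br* and *Syp*, and that of *chinmo* and *br* in the knockdown, thus depended on the length used. With the mean transcript length *Eip93F* was at 0.221 CPM per kb in the controls, still below *lin-28* at 0.276. That the libraries of these neighbours did not overlap holds for the exon length only.

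The ratio of opposing factors within a library does not depend on scaling between libraries. *Imp* over *Syp*, in CPM, was 0.0953, 0.0868 and 0.0792 in control replicates 1 to 3 and 0.503, 0.472 and 0.527 in knockdown replicates 1 to 3. The mean ratio was 0.0871 ± 0.00805 in control and 0.501 ± 0.0274 in knockdown libraries (SD, n = 3 each), 5.75-fold higher. *Syp* still exceeded *Imp* in every knockdown library in CPM.

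*chinmo* over *br*, in CPM, was 0.0144, 0.00749 and 0.00346 in control replicates 1 to 3 and 0.587, 0.648 and 0.669 in knockdown replicates 1 to 3. The mean ratio was 0.00845 ± 0.00553 in control and 0.635 ± 0.0426 in knockdown libraries (SD, n = 3 each), 75.1-fold higher. The lowest knockdown ratio was 40.8 times the highest control ratio for *chinmo* over *br* and 4.95 times for *Imp* over *Syp*. Without control replicate 1 the control mean was 0.083 for *Imp* over *Syp* and 0.00547 for *chinmo* over *br*, and the knockdown mean was 6.03 and 116 times as high. These ratios restate the differences of the single genes and were not tested.

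**Figure D3:**
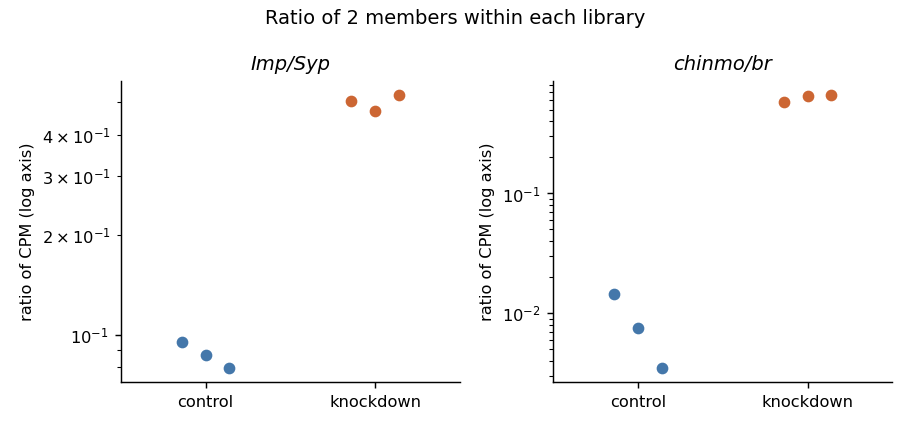
Ratio of *Imp* to *Syp* and of *chinmo* to *br* in CPM within each library, on log axes, with 1 point per library from replicate 1 on the left to replicate 3 on the right. All knockdown libraries lie above all controls, at 0.472 to 0.527 against 0.0792 to 0.0953 for *Imp* over *Syp* and at 0.587 to 0.669 against 0.00346 to 0.0144 for *chinmo* over *br*.

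*chinmo* and *Imp* are also known from the nervous system, so neural markers are given beside them. The summed level of 8 neural markers was 65.7 to 77.8 CPM in control and 106 to 109 CPM in knockdown libraries. Among them *elav* (log2 fold change 0.61) and *dpn* (1.09) were higher and *ase* (-3.83) was lower, and *Syt1* was not called. The other 4 lay under the filter. Of these *nSyb*, of synaptic vesicles, had a mean of 0.767 CPM in control and 1.65 CPM in knockdown libraries. *wor*, of neuroblasts, had 0.402 and 0.701 CPM, and for both genes every knockdown library was above every control. *brp*, of synapses, went the other way, with means of 0.327 CPM in control and 0.122 CPM in knockdown libraries. Each knockdown library was below every control for *brp*, and the groups of *repo*, of glia, overlapped. *brp* and *repo* were under 1 CPM in every library. The summed level of 6 myoblast markers was 302 to 322 CPM in control and 242 to 254 CPM in knockdown libraries, with *twi*, *zfh1* and *Him* lower and none higher. The 4 tracheal markers summed to 761 to 1070 CPM in control and 1300 to 1420 CPM in knockdown libraries, with *serp* and *verm* higher and *trh* and *btl* lower, and 5 hemocyte markers summed to 23.1 to 32.1 and 16.7 to 32.9 CPM. Among the hemocyte markers *eater* (log2 fold change -1.24) and *srp* (-2.27) were lower, *Hml* and *Pxn* were not called, and *NimC1*, under the filter, was below every control in each knockdown library. The part of other cell types in the levels of the 6 factors was not tested.

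Regulators of the response to ecdysone and juvenile hormone, which time the succession of these factors, moved in both directions. Of 14 tested regulators, 4 rose, 6 fell and 4 missed the call, and their median log2 fold change was -0.20, against 0.0014 over all tested genes. The share called was 71.4%, against 26.6% of all tested genes (15.3% higher and 11.2% lower). *ftz-f1*, the nuclear receptor of the prepupal response, was at 20.9, 11.4 and 5.19 CPM in control replicates 1 to 3 and at 100, 110 and 111 CPM in knockdown replicates 1 to 3 (log2 fold change 3.10, adjusted p = 0.000932). Its controls were as uneven as those of *chinmo* and all lay below the knockdown libraries. *Hr38*, a receptor gene, and *EcR*, the ecdysone receptor, were higher with log2 fold changes of 2.02 and 0.67.

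The lowest log2 fold changes in the list belonged to *Blimp-1*, *Hr3* and *Hr4*. *Blimp-1*, a repressor that times *ftz-f1*, was at 83.2, 146 and 158 CPM in control replicates 1 to 3 and at 0.184, 0.148 and 0.287 CPM in knockdown replicates 1 to 3 (log2 fold change -9.29). *Hr3* and *Hr4*, nuclear receptors that act between the ecdysone peaks, fell with log2 fold changes of -8.45 and -6.63. No knockdown library reached any control for these 3 genes. The call of *Hr3* was lost with voom and that of *EcR* with glmTreat, a test against the fold threshold itself.

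Of 8 tested genes of disc eversion and stage, 6 were lower and 2 were higher, with a median log2 fold change of -3.26. Over all tested genes, 11.2% were called lower and 15.3% higher. *ImpE2*, an ecdysone-inducible gene of everting discs, was at 3869, 5603 and 6827 CPM in control replicates 1 to 3 and at 13.0, 10.7 and 5.79 CPM in knockdown replicates 1 to 3 (log2 fold change -9.11). *ImpE3* was lower by -5.53, *Fbp1*, also a fat body gene, by -4.44 and *ImpL1* by -2.13, all as log2 fold changes. *Edg91*, a cuticle gene, and *ImpL2*, a secreted inhibitor of insulin signalling, were higher with 1.36 and 0.96. The calls of *Fbp1* and *ImpL1* were lost with voom, with glmTreat and without each knockdown library, and *Fbp1* was at 325 CPM in control replicate 1 against 7.49 and 35.6 CPM in the other controls.

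The control libraries differed in several of these genes together with *chinmo*. Control replicate 1 was the highest and control replicate 3 the lowest for *chinmo*, for *ftz-f1* (4.03 times), for *EcR* (1.25 times) and for the BTB genes *fru* (3.31 times) and *ken* (1.65 times). The reverse held for *Hr3* (3.71 times), *Hr4* (2.47 times), *Blimp-1* (1.9 times), *ImpE2* (1.76 times) and *ImpE3* (2.2 times). Over the 65 tested genes of the related lists, 9 had control replicate 1 highest and control replicate 3 lowest. Of these, 7 were called higher in the knockdown and none lower, beside 15.3% and 11.2% of all tested genes. Another 37 had the reverse, of which 18 were called lower, 15 were not called and 4 were called higher. These 4 were *ImpL2* and, of the JAK/STAT pathway, *upd2*, *upd3* and *Ptp61F*. For some of the 65 genes the ratio was small, as 1.05 for *upd1* and 1.07 for *Ptp61F*, against a median of 1.1 over all tested genes. Neither order was counted over all tested genes, so whether the orders are more frequent in these lists than elsewhere was not tested. Control replicate 1 was also the library with fat body RNA. Whether the control pools differed in age was not tested, and developmental age and the RNAi cannot be told apart in the comparison of the groups.

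The let-7 axis, which connects *lin-28* with *chinmo*, had 9 tested genes, of which 2 were higher and none was lower. The 22.2% called was no more than the 26.6% over all tested genes. *ab*, a BTB zinc finger gene that let-7 represses, was at 257, 241 and 240 CPM in control replicates 1 to 3 and at 596, 651 and 622 CPM in knockdown replicates 1 to 3 (log2 fold change 1.34, adjusted p = 1.56e-06). *wech*, a gene of muscle attachment, was higher with a log2 fold change of 0.60. The knockdown libraries were above all controls for both genes.

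The let-7 complex transcript itself lay under the filter, with 39, 72 and 105 counts in control replicates 1 to 3 and 5, 8 and 14 counts in knockdown replicates 1 to 3. All knockdown libraries were below all controls. Without the filter it was called lower, at a log2 fold change of -2.79 ± 0.47 (± is the standard error, with adjusted p = 0.00124 by edgeR). The separate genes of let-7, mir-100 and mir-125 had 0 counts in all 6 libraries, and poly(A)-selected libraries do not measure mature microRNAs.

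Among relatives of Chinmo and Broad, 11 BTB or pipsqueak-domain genes were tested, of which 3 rose, 1 fell and 7 missed the call (36.4% called, against 26.6% of all tested genes, median log2 fold change -0.0121). *fru*, the sex determination factor, was at 166, 105 and 50.02 CPM in control replicates 1 to 3 and at 793, 778 and 795 CPM in knockdown replicates 1 to 3 (log2 fold change 2.88, adjusted p = 0.000699). As for *chinmo*, the controls were uneven and low and the knockdown libraries even and high. *ken* (log2 fold change 1.60) and *ab*, which is also in the let-7 list, were the other higher genes, and *bab2*, a patterning gene of limbs, fell by 1.94 on the log2 scale.

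Among relatives of Imp and Syp, 9 genes of RNA-binding proteins were tested, of which 2 fell and 7 missed the call (22.2% called, against 26.6% of all tested genes, median log2 fold change -0.20). *mub*, a KH-domain protein gene, was at 387, 446 and 469 CPM in control replicates 1 to 3 and at 237, 232 and 248 CPM in knockdown replicates 1 to 3 (log2 fold change -0.86). *Fmr1*, the fragile X gene, fell by 0.52 on the log2 scale, a call that was lost with glmTreat, upper-quartile scaling or scaling by library size, and without control replicate 3 or knockdown replicate 2.

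**Figure D4:**
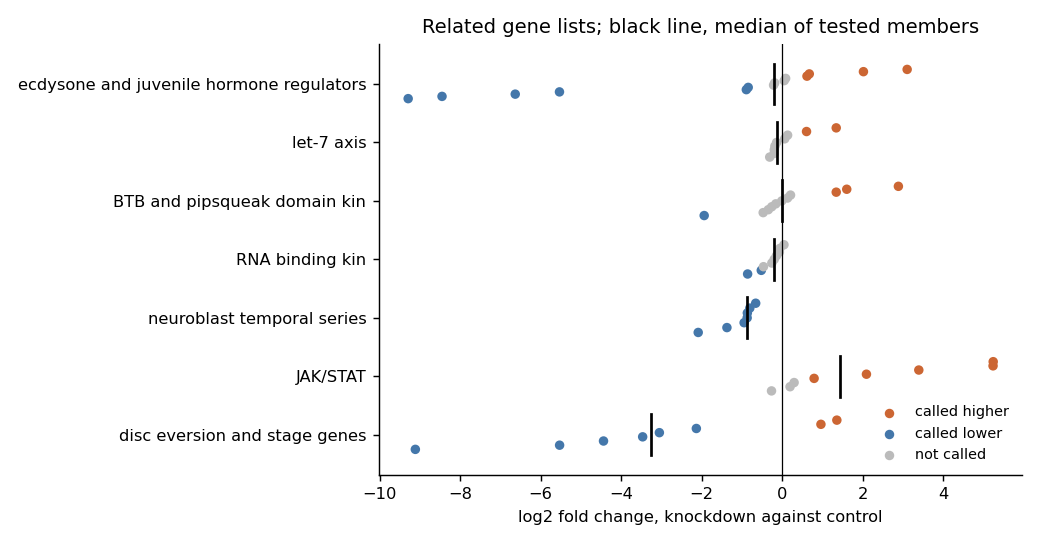
Log2 fold change (knockdown against control) of every tested gene in 7 related lists, with the median of each list as a black line. Orange points were called higher, blue points lower and grey points were not called. The median is lowest for disc eversion and stage genes, at -3.26, and highest for JAK/STAT, at 1.44.

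For each tested factor the 3 genes with the most similar profile were taken, by the root mean square difference of log2(CPM + 1) over the 6 libraries, each centred on its control mean. *br* was nearest to *phyl* (0.0328), *CG44004* (0.06) and *SPE* (0.0627), with 16 genes within 0.1. These 3 had log2 fold changes of -1.96, -2.20 and -1.90, outside the interval of *br*, and lay at 0.719 to 4.71 CPM in their group means, where the added 1 lowers the difference. *Imp* was nearest to *AGO3* (0.0414), *CG5381* (0.0424) and *gkt* (0.0433), with 33 genes within 0.1. Of these 3 *gkt* had a log2 fold change of 1.10, and the scarcer *AGO3* and *CG5381* had 1.34 and 1.89, past the interval of *Imp*. *Syp* was nearest to *MP1* (0.0362), *mtgo* (0.0425) and *smal* (0.0494), with 24 genes within 0.1, and their log2 fold changes were -1.46, -1.42 and -1.44.

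*chinmo* had no gene within 0.1. The nearest were *CG42319* (0.462), *CG15784* (0.476) and *CG32625* (0.485). All 3 were called higher, with log2 fold changes of 6.12, 5.41 and 6.52, and were more even among the controls than *chinmo*. *Eip93F*, which was not called, had 362 genes within 0.1, of which *MFS17* (0.047), *gny* (0.0511) and *Hus1-like* (0.0547) were nearest. At the 1.63 to 2.34 CPM of *Eip93F* the added 1 lowers differences, so that this number cannot be set against those of the abundant factors.

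**Figure D5:**
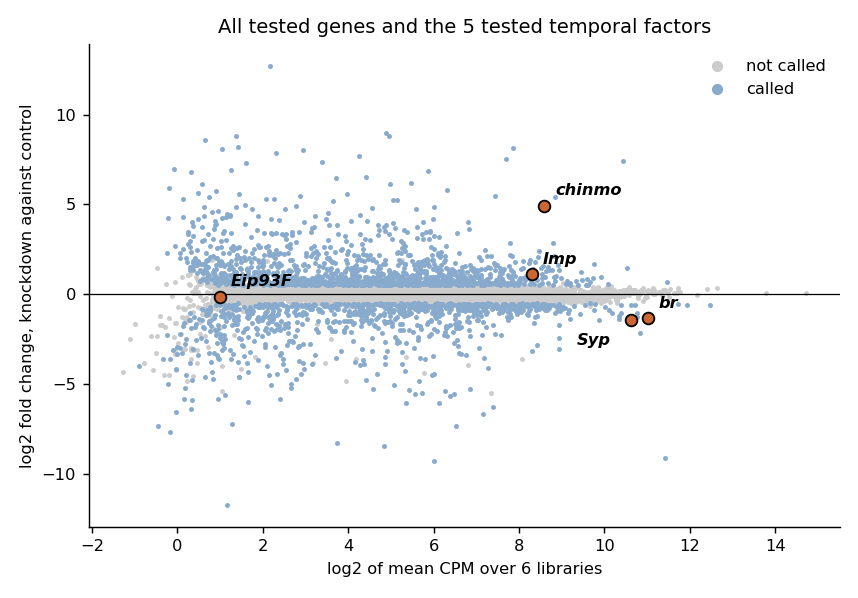
Log2 fold change (knockdown against control) against log2 of the mean CPM over 6 libraries for 7942 tested genes, with called genes in blue, other genes in grey and the 5 tested factors as orange circles. *chinmo* stands at 4.93 and *Imp* at 1.11 above 0, *Syp* at -1.41 and *br* at -1.34 below 0 at the abundant end, and *Eip93F* at -0.15 at the scarce end.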

How the data were processed

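Wing disc RNA of 3 control and 3 knockdown libraries was compared. Rsubread was the authors' aligner and BDGP6 their genome build. The deposited values are whole-number counts per gene from featureCounts, run without strand although the labels call the libraries directional. FastQC, limma and edgeR 3.13.4 also stand in the submitters' processing notes. The authors' comparison table holds fold changes and p-values from voom and limma. None of these values were used, and its identifiers, symbols and positions only named 120 genes, among them *br* and *Imp*. The annotation named 17253 genes, and 186 stayed unnamed.

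Genes were filtered by a rewritten Jaccard similarity index (thresholds 1 to 200, chosen 200), scaled by TMM and tested with edgeR 4.0.16 (glmQLFit and glmQLFTest, R 4.3.3) with Benjamini-Hochberg adjustment over 7942 genes, which held 99.82% to 99.88% of counts. The test was run on simulated data first. Alternatives were RLE, upper-quartile and library-size scaling, filterByExpr or no filter, DESeq2 1.42.0, voom in limma 3.58.1, glmTreat, no minimum fold change, a replicate block, and each library left out in turn. The *lin-28* count ratio and the ratios between members without control replicate 1 were added after the data were seen. Exon lengths came from the BDGP6 annotation. Replicate pairs differed beyond sampling noise, by a chi-square of 16.0 to 166 for each degree of freedom, so all 6 were kept.

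The members and lists were chosen with earlier results of these data known. Named are the 6 members, the called genes of each list (where over 6 were called, the 3 highest and 3 lowest log2 fold changes), the 3 genes most like each tested member, *Nup98-96* and *w*. Markers of other cell types, genes that overlap a member and list genes under the filter are named besides. *scro*, of the neuroblast list, had no match.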

Additional observations from a re-analysis of the deposited data

How the results depend on the processing

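The 4 called members kept their direction and call under all 16 alternatives, and *lin-28* was also called without the filter and with filterByExpr. On leaving out each library the log2 fold change ranged from 4.57 to 5.46 for *chinmo*, -1.39 to -1.29 for *br*, -0.30 to -0.0653 for *Eip93F*, 1.09 to 1.17 for *Imp* and -1.47 to -1.38 for *Syp*. Over all genes, 2109 were called, against 3169 without the filter and 5226 with no minimum fold change, and 2004 to 2230 on leaving out each library. Higher genes numbered 1219, against 1873 with filterByExpr, 1950 without the filter and 2641 with no minimum fold change, where lower genes numbered 2585 against 890. With no minimum fold change, calls rose to 8 in the let-7 list, 9 in the BTB list, 6 in the RNA-binding list and 8 in the JAK/STAT list. The RNA-binding list had 1 call with upper-quartile scaling, library size only and glmTreat, and 1 to 3 on leaving out each library (1 without control replicate 3 or knockdown replicate 2).

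Replicate numbers did not pair the samples, since deviations of same-numbered libraries correlated at -0.165, -0.0198 and 0.0203. With the replicate block 2076 genes were called, and the log2 fold change was 5.11 for *chinmo*, -1.34 for *br*, -0.13 for *Eip93F*, 1.11 for *Imp* and -1.41 for *Syp*. The block moved no member across the threshold, and among the named genes the call of *Fbp1* was lost. Other scalings moved the median log2 fold change of all genes by at most 0.035. Depth limits *lin-28* and the let-7 complex transcript, and *Eip93F* lay near the filter's threshold.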

Other observations

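Genes of the neuroblast temporal series, the transcription factors that neural stem cells express in turn, are related to these factors by role. Of 15 matched genes, 7 passed the filter and all 7 were lower, with a median log2 fold change of -0.87, beside 11.2% of all tested genes called lower. The zinc finger gene *klu* was at 117, 120 and 137 CPM in control replicates 1 to 3 and at 27.6, 29.7 and 30.5 CPM in knockdown replicates 1 to 3 (log2 fold change -2.09, adjusted p = 1.58e-06, edgeR). The orphan nuclear receptor gene *svp* had a log2 fold change of -1.37, *opa* -0.95, the POU factor gene *pdm2* -0.87, the epithelial factor gene *grh* -0.81 and the homeobox gene *hth* -0.66. Several of these genes also pattern the wing disc itself, so that the list does not mark neural cells alone. Under the filter, *D* was lower when no filter was applied (log2 fold change -2.18, adjusted p = 0.00591), and none of the other 7 was called, with log2 fold changes from -1.58 for *Kr* to 0.65 for *slp1* and values near 0 for *cas* and *ey*.

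Of 8 tested genes of the JAK/STAT pathway, the cytokine cascade for which *chinmo* is known as a target in several tissues, 5 were higher and none was lower, with a median log2 fold change of 1.44, beside 15.3% of all tested genes called higher. The ligand gene *upd1* was at 16.8, 16.3 and 15.9 CPM in control replicates 1 to 3 and at 172, 159 and 183 CPM in knockdown replicates 1 to 3 (log2 fold change 3.39, adjusted p = 1.56e-07, edgeR). The other ligand genes *upd2* and *upd3* both had a log2 fold change of 5.24, the feedback inhibitor gene *Socs36E* 2.09 and the phosphatase gene *Ptp61F* 0.79. Among the ligand genes the highest control was 1.05 times the lowest for *upd1*, 1.95 times for *upd2* and 1.3 times for *upd3*. For *chinmo* it was 3.75 times.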
